A study of Mus musculus with 12 samples.

Results

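Lipid-associated and scar-associated macrophages are named for a shared group of genes, and 9 of them were followed here in mouse liver: Trem2, Gpnmb, Cd9, Cd63, Fabp5, Lpl, Cd68, Lgals3, and Itgax. They were chosen by name from what is known of these macrophages, with earlier results of these livers known, and no threshold on their values was used. All 9 were found among the 40551 genes counted, and all 9 passed the filter on low counts that kept 15070 genes for testing. The question was how these genes differ in chronic liver disease caused by loss of a survival factor in hepatocytes, and whether they differ when the DNA-sensing adaptor STING is also absent.

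Macrophages that take up dying cells and lipoproteins in injured liver and in fat tissue carry the receptor TREM2 on their surface, and TREM2 signals through the adaptor TYROBP (DAP12) to the kinase SYK. Such cells also make proteins of lysosomes and late endosomes (CD68, CD63, GPNMB), the tetraspanin CD9, the lectin galectin-3 (Lgals3), the integrin chain CD11c (Itgax), and proteins that release and carry fatty acids (LPL, FABP5). Several of the genes are not confined to macrophages: Cd9, Cd63, Lgals3, Fabp5, and Lpl are also used by hepatocytes, fibroblasts, fat cells, or endothelium, and Itgax by dendritic cells.

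The promoters of Trem2, Gpnmb, Cd68, and Itgax are shown because they are the ones among the genes in which a match to the AP-1 motif was found. The sequences run from 250 bases before the RefSeq transcription start to 50 bases after it, in the direction of the gene, on build GRCm38.p6. Capitals mark matches on either strand to TGANTCA (AP-1), GAGGAAG (the core of PU.1 sites), or AGGTCA (the core of nuclear receptor sites). Trem2 lies at chr17:48346151-48346450 (+), Gpnmb at chr6:49036268-49036567 (+), Cd68 at chr11:69666121-69666420 (-), and Itgax at chr7:128129300-128129599 (+).
Trem2: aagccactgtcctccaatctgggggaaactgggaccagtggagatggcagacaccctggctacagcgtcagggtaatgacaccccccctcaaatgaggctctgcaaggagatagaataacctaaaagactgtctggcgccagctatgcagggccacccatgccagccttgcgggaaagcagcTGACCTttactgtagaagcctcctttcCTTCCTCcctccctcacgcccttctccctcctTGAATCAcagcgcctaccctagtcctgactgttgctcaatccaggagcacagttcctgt
Gpnmb: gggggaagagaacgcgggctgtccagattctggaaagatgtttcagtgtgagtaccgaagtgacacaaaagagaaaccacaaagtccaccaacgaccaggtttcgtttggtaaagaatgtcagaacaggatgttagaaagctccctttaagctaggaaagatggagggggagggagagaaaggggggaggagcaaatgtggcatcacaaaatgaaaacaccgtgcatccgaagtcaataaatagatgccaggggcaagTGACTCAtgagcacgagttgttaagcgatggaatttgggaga
Cd68: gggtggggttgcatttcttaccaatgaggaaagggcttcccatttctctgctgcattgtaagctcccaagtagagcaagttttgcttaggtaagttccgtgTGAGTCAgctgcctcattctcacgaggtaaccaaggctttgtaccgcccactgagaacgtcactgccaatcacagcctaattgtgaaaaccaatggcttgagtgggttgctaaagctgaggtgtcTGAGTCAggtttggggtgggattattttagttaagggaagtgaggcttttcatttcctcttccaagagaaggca
Itgax: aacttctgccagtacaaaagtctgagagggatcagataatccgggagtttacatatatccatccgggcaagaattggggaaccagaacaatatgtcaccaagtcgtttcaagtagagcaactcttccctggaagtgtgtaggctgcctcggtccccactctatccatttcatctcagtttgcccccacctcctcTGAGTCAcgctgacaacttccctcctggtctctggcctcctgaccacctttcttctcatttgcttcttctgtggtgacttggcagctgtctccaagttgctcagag

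The RefSeq table held promoters of 7 of the 9 genes, those of Trem2, Gpnmb, Cd9, Cd63, Cd68, Lgals3, and Itgax. TGANTCA was found in 4 of the 7, with 2 matches in Cd68, beside 7.81% of all 32851 promoters in the table. In Trem2 the match ended 3 bases before the start, whereas in Gpnmb it began 8 bases after it. GAGGAAG was found in 2 of the 7 (Trem2 and Cd63), beside 13.6% of all promoters, and AGGTCA in 1 (Trem2), beside 16.3%. CACGTG (the E-box core), CACGTGA (the core bound by the TFEB family, which contains CACGTG), and TCATGTG (the M-box) were in none of the 7, beside 7.15%, 3.77%, and 3.77% of all promoters. A match is a run of letters and was not tested as a binding site.

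Total RNA of 12 livers was sequenced, 1 library per liver and 3 livers per genotype. The genotypes were wild type (WT), Mcl1Δhep (labelled Mcl1 KO), Mcl1Δhep Sting1-/- (labelled Mcl1 Sting1 DKO), and Sting1-/- (labelled Sting1 KO). In Mcl1Δhep mice an Alb-Cre transgene deletes floxed Mcl1, which encodes a prosurvival protein of the BCL-2 family, in hepatocytes, so macrophages keep the gene. Sting1-/- mice carry the null allele in every cell, macrophages included, and were crossed with Mcl1Δhep mice to give the combined genotype. None of the mice received a treatment. The study places its Mcl1Δhep and WT liver transcriptomes at 2 months of age and states no age for those of the other genotypes. The sample labels give no age, and mice of both sexes were used. The livers are taken as separate animals, and p-values measure the spread between them.

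Between 28826367 and 45266387 reads per library were counted on genes. Mcl1 had 90.2 to 104 CPM (reads scaled to library size with edgeR's TMM factors) in WT and 77.0 to 90.1 in Sting1-/- livers, but 25.0 to 34.0 in Mcl1Δhep and 18.1 to 26.0 in Mcl1Δhep Sting1-/- livers. Sting1 had 2.11 to 2.53 CPM in WT and 1.16 to 2.70 in Sting1-/- livers, which overlap, and 3.67 to 5.997 in Mcl1Δhep and 1.90 to 2.53 in Mcl1Δhep Sting1-/- livers, which do not (log2 difference -1.05, unadjusted p = 0.00328, adjusted p = 0.134). The sources do not say which part of Sting1 the null allele lacks, so the counts are no full check of that label. The study itself checked the knockout line by Western blot and found no IRF3 phosphorylation in its splenocytes after a STING agonist. All 6 hepatocyte markers (Alb, Ttr, Apoa1, Serpina1c, Tat, Hnf4a) were detected in every genotype. Y-linked genes were expressed in WT replicates 2 and 3 and in Mcl1Δhep Sting1-/- replicate 1. They summed to at most 0.19 CPM in Mcl1Δhep and 0.053 CPM in Sting1-/- livers. Y-linked expression is therefore partly confounded with genotype when either of these is compared with WT or with Mcl1Δhep Sting1-/- livers. Small structured RNAs took 0.283, 2.37, and 1.36% of the counts in the Mcl1Δhep libraries and 0.172 to 0.897% elsewhere. Skeletal muscle markers summed to 1204 CPM in Mcl1Δhep replicate 3 and to at most 6.55 in the others.

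Per unit of transcript length (TPM, computed with exon lengths of GENCODE vM39), the genes covered a wide range of levels in WT livers. Fabp5 was highest at 39.5 ± 22.8 TPM (mean ± SD, n = 3 here and below), followed by Cd68 at 29.4 ± 10.3 and Cd9 at 19.9 ± 3.61, and the livers of neighbours in this order overlapped. Lgals3 (10.1 ± 2.44 TPM), Lpl (4.77 ± 1.003), and Cd63 (1.69 ± 0.795) each lay below the gene before them without overlap. Cd63 and Itgax (1.68 ± 0.708) could not be told apart. Trem2 at 0.550 ± 0.042 and Gpnmb at 0.379 ± 0.290 TPM were the lowest, and their livers overlapped. The same order held in Sting1-/- livers, with Trem2 at 0.218 ± 0.0762 and Gpnmb at 0.102 ± 0.0721 TPM. In Mcl1Δhep livers the order was different: Lgals3 came first at 72.7 ± 27.3 TPM, above Cd68 (66.6 ± 10.3), Cd9 (60.3 ± 18.1), Fabp5 (48.8 ± 19.2), and Lpl (28.1 ± 14.2), with overlap at every step. Gpnmb followed at 13.01 ± 5.18 TPM, below Lpl without overlap and in the range of Cd63 (11.3 ± 5.71). In Mcl1Δhep Sting1-/- livers Cd68 came first at 53.6 ± 4.23 TPM, and Cd63 last at 3.002 ± 0.740, in the range of Itgax, Trem2, and Gpnmb.

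Trem2, the lipid-sensing receptor, had 0.765, 0.712, and 0.793 CPM in WT livers (replicates 1, 2, and 3 here and below), where 24 to 29 reads per library were counted. It had 5.57, 14.5, and 8.73 CPM in Mcl1Δhep livers and 5.51, 4.78, and 1.56 in Mcl1Δhep Sting1-/- livers. Sting1-/- livers held 0.436, 0.292, and 0.217 CPM, from 9 to 15 reads. Every liver with Mcl1 deleted was above every liver with Mcl1 intact, every Mcl1Δhep Sting1-/- liver was below every Mcl1Δhep liver, and every Sting1-/- liver was below every WT liver. Gpnmb, a transmembrane glycoprotein that is induced under lysosomal stress, had 0.554, 0.237, and 1.32 CPM in WT livers. It had 19.6, 40.0, and 17.2 CPM in Mcl1Δhep livers and 12.9, 7.16, and 3.56 in Mcl1Δhep Sting1-/- livers. The Sting1-/- livers held 0.175, 0.345, and 0.0724 CPM, from 3 to 13 reads, so that its level there rests on few reads. The order of the genotypes was that of Trem2, except that WT and Sting1-/- livers overlapped.

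The 2 genes of fatty acid handling differed from each other. Lpl, which encodes the secreted lipase that frees fatty acids from circulating triglycerides, had 12.004, 16.9, and 20.1 CPM in WT and 16.6, 15.5, and 16.6 CPM in Sting1-/- livers. It had 131, 78.4, and 77.0 CPM in Mcl1Δhep livers and 135, 56.7, and 23.4 CPM in Mcl1Δhep Sting1-/- livers. The Mcl1-deleted livers were all higher than the intact ones, and the Mcl1Δhep Sting1-/- livers spread over the range from just above WT to the top of Mcl1Δhep. Fat cells also make Lpl, and the summed level of 5 adipocyte markers (Adipoq, Plin1, Cfd, Lep, Retn) was 2.42, 1.32, and 52.1 CPM in the Mcl1Δhep livers and 22.9, 17.2, and 0.219 CPM in the Mcl1Δhep Sting1-/- livers. It was 0.0791, 13.4, and 0.165 CPM in WT and 0.0265 to 0.941 CPM in Sting1-/- livers, and the part of fat tissue in Lpl was not tested. Fabp5, a cytosolic carrier of fatty acids, had 63.6, 27.6, and 27.7 CPM in WT, 62.7, 41.9, and 46.9 in Mcl1Δhep, 27.0, 29.9, and 67.9 in Mcl1Δhep Sting1-/-, and 104, 32.3, and 72.6 in Sting1-/- livers. All 4 genotypes overlapped for this gene.

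The tetraspanins Cd9 and Cd63 were highest in Mcl1Δhep livers. Cd9, a tetraspanin of the plasma membrane, had 12.4, 13.3, and 9.58 CPM in WT and 22.7, 55.3, and 38.0 in Mcl1Δhep livers. It had 25.1, 17.6, and 26.0 CPM in Mcl1Δhep Sting1-/- livers and 11.8, 10.03, and 22.0 in Sting1-/- livers, and the ranges of these genotypes overlapped with each other. Cd63, a tetraspanin of late endosomes and lysosomes, had 3.25, 1.99, and 1.42 CPM in WT livers and 8.28, 27.8, and 13.4 in Mcl1Δhep livers. It had 4.61, 3.73, and 2.93 CPM in Mcl1Δhep Sting1-/- livers and 1.57, 1.72, and 2.003 in Sting1-/- livers. The Mcl1Δhep livers stood above all others, and the Mcl1Δhep Sting1-/- livers reached into the WT range.

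Cd68, a glycoprotein of macrophage lysosomes, had 10.5, 7.50, and 15.6 CPM in WT and 24.7, 31.3, and 23.6 in Mcl1Δhep livers. The 3 Mcl1Δhep Sting1-/- livers lay close together at 19.3, 19.7, and 18.7 CPM, below Mcl1Δhep and above the other genotypes, and Sting1-/- livers held 9.95, 12.4, and 10.5. Lgals3, which encodes the galactoside-binding lectin galectin-3, had 6.33, 4.95, and 8.19 CPM in WT and 27.6, 77.3, and 47.6 in Mcl1Δhep livers. It had 17.1, 15.4, and 12.8 CPM in Mcl1Δhep Sting1-/- livers and 6.61, 6.71, and 9.17 in Sting1-/- livers. The genotypes formed steps for Lgals3, with Mcl1Δhep on top, Mcl1Δhep Sting1-/- in between, and WT and Sting1-/- overlapping below. Itgax, the CD11c chain that pairs with the integrin chain of Itgb2, had 3.11, 1.42, and 2.21 CPM in WT livers and 6.76, 9.27, and 5.28 in Mcl1Δhep livers. It had 4.88, 3.46, and 3.34 CPM in Mcl1Δhep Sting1-/- and 1.16, 1.35, and 2.05 in Sting1-/- livers, in the same steps as Lgals3.

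**Figure D1:**
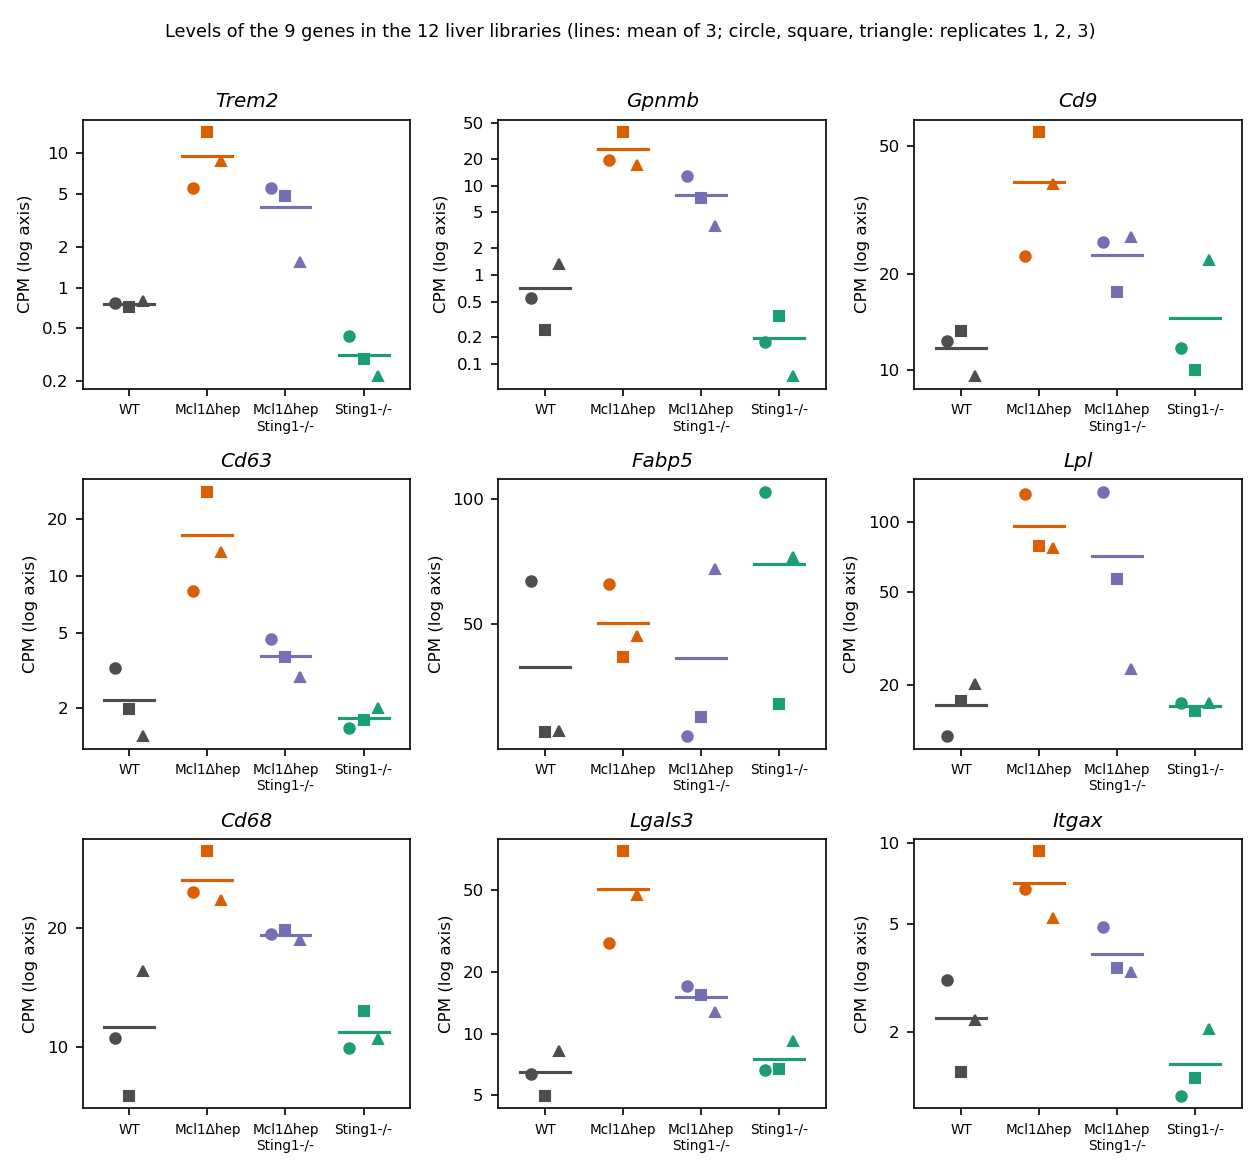
Levels of the 9 genes in the 12 livers, in CPM on a log axis, with 1 panel per gene and the genotypes side by side (points are livers, circles, squares, and triangles are replicates 1, 2, and 3, and lines are means of 3). Trem2 and Gpnmb separate the livers by Mcl1 genotype in both Sting1 backgrounds, whereas the 4 genotypes overlap for Fabp5.

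Deletion of Mcl1 with Sting1 present, that is Mcl1Δhep against WT, raised 8 of the 9 genes, and Fabp5 did not pass the test. Gpnmb rose 34.3-fold and Trem2 11.9-fold, Lgals3 7.78-fold, Cd63 7.23-fold, and Lpl 5.84-fold, whereas Cd9 (3.28-fold), Itgax (3.10-fold), and Cd68 (2.36-fold) rose less. In this comparison the quasi-likelihood test called 20.2% of all tested genes, and 10.8% of all tested genes were called higher. The median log2 fold change was 2.55 over the 9 genes and -0.00 over all tested genes. The 3 Mcl1Δhep livers lay above the 3 WT livers for the same 8 genes, which was the case for 16.2% of all tested genes. On the log2 scale, Gpnmb rose by 5.10 (SE 0.61, adjusted p = 0.00133, edgeR quasi-likelihood test here and below), Trem2 by 3.57 (SE 0.46, adjusted p = 0.00138), Lgals3 by 2.96 (SE 0.31, adjusted p = 0.000979), and Cd63 by 2.85 (SE 0.40, adjusted p = 0.00204). Lpl rose by 2.55 (SE 0.47, adjusted p = 0.00645), Cd9 by 1.71 (SE 0.34, adjusted p = 0.00763), Itgax by 1.63 (SE 0.32, adjusted p = 0.00700), and Cd68 by 1.24 (SE 0.22, adjusted p = 0.00481). The log2 difference of Fabp5 was 0.35, with a 95% interval from -0.67 to 1.36 (adjusted p = 0.619). All 8 calls held without any single library, and also with Y-linked expression as a covariate. When the fraction of counts on small structured RNAs was added as a covariate, Trem2, Gpnmb, Lpl, and Lgals3 passed, but Cd9 (0.81, adjusted p = 0.279), Cd63 (1.81, adjusted p = 0.0783), Cd68 (0.94, adjusted p = 0.0918), and Itgax (1.36, adjusted p = 0.119) did not. With this covariate 407 of all tested genes were called. The fraction of small structured RNAs differs between these genotypes, and its part in the result was not tested further.

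Other cell types moved in the same comparison, and in bulk tissue a change in the number of cells cannot be told apart from a change in RNA per cell. Of 10 pan-macrophage markers, 6 were called higher (Lyz2, C1qa, C1qb, C1qc, Aif1, Adgre1) and none lower, and their summed level was 464 to 706 CPM in WT and 847 to 1083 CPM in Mcl1Δhep livers. Of 10 Kupffer cell markers, 3 were called higher (Marco, Cd5l, Il18bp), at a summed 554 to 829 and 863 to 1062 CPM. Of 10 recruited monocyte markers, 9 were called higher, among them Ccr2, Ly6c2, and Chil3. Their sum is dominated by Fn1, which hepatocytes make and which was not called but was lower at an unadjusted p under 0.05. With Fn1 the sum was 1520 to 1848 CPM in WT and 751 to 1523 CPM in Mcl1Δhep livers. Without Fn1, a choice made after its level was seen, the sum was 14.5 to 17.4 CPM in WT, 38.4 to 97.9 in Mcl1Δhep, 20.8 to 25.9 in Mcl1Δhep Sting1-/-, and 14.8 to 19.3 in Sting1-/- livers. Of the neutrophil markers, 4 of 5 tested were higher, at a summed 1.87 to 2.84 CPM in WT and 7.88 to 19.6 in Mcl1Δhep livers. Of the stellate and fibroblast markers, 5 of 7 were higher (Acta2, Des, Dcn, Col1a1, Col3a1), at a summed 410 to 645 and 858 to 906 CPM, as were 4 of 5 pan-leukocyte and 2 of 8 dendritic cell markers. None of 6 endothelial, 5 tested cholangiocyte, or 4 tested adipocyte markers was called, and 1 of 3 tested platelet markers (Pf4) was higher. The parts of these cell types in the levels of the 9 genes were not tested.

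The genes were also expressed relative to the pan-macrophage markers, by subtracting the mean log2 CPM of the 10 markers in the same library. That mean was 5.20, 4.92, and 5.56 in WT, 5.89, 6.07, and 5.80 in Mcl1Δhep, 5.71, 5.76, and 5.82 in Mcl1Δhep Sting1-/-, and 5.26, 5.63, and 5.46 in Sting1-/- livers. On this scale, 7 of the 9 genes were still higher in every Mcl1Δhep liver than in any WT liver, beside 4.44% of all tested genes. Gpnmb was 23.5-fold higher relative to the markers, Trem2 6.81-fold, Lgals3 4.50-fold, Cd63 4.19-fold, Lpl 3.56-fold, Itgax 1.96-fold, and Cd68 1.51-fold. Cd9 (1.92-fold higher on average) and Fabp5 (1.19-fold lower) overlapped between WT and Mcl1Δhep livers. Cd68 had the smallest of these differences among the 7 genes that did not overlap. The ratio is not a level per macrophage, because several of the 9 genes are also used by other cells.

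**Figure D2:**
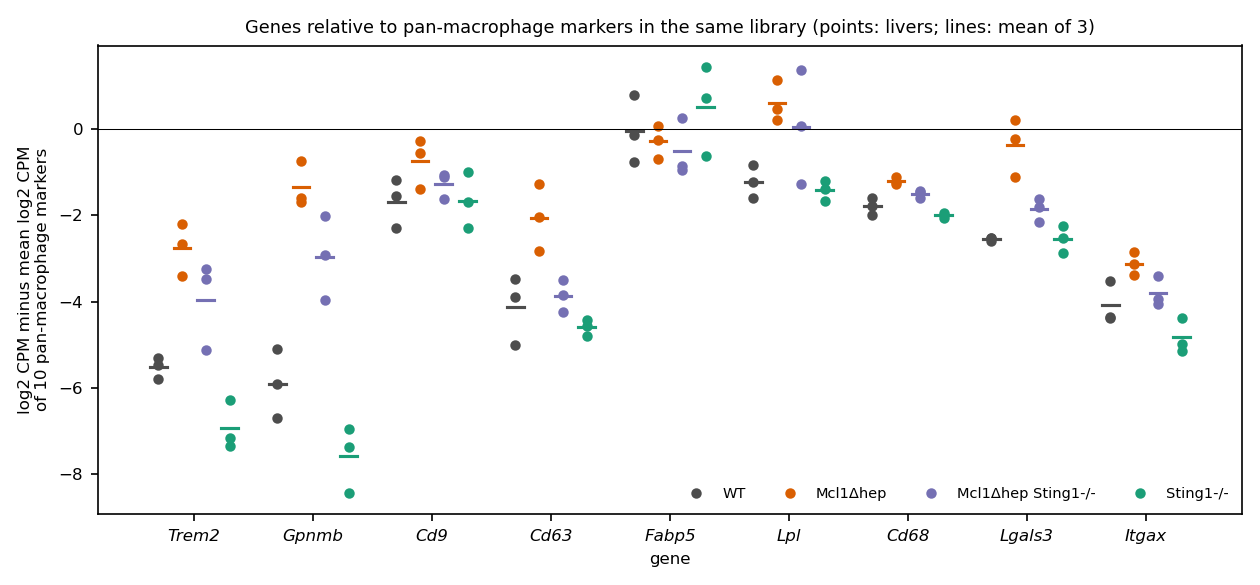
Each gene relative to pan-macrophage markers, as its log2 CPM minus the mean log2 CPM of 10 markers in the same library (points are livers, lines are means of 3, and colours are genotypes). For Trem2 and Gpnmb, the 6 livers with Mcl1 deleted lie above the 6 with Mcl1 intact, and Sting1-/- livers lie below WT.

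Without Sting1, that is Mcl1Δhep Sting1-/- against Sting1-/-, only Trem2 and Gpnmb of the 9 genes passed the test. Gpnmb rose 31.5-fold (log2 4.98, SE 0.78, adjusted p = 0.0206) and Trem2 10.9-fold (log2 3.45, SE 0.52, adjusted p = 0.0206). In this comparison 0.803% of all tested genes were called, and 0.677% of all tested genes were called higher. The livers did not overlap for 7 of the 9 genes, all higher in Mcl1Δhep Sting1-/-, beside 11.5% of all tested genes. Lpl differed by 2.13 on the log2 scale (SE 0.47, adjusted p = 0.0737), Itgax by 1.32 (SE 0.33, adjusted p = 0.0943), Cd63 by 1.06 (SE 0.41, adjusted p = 0.329), Lgals3 by 0.9996 (SE 0.31, adjusted p = 0.212), and Cd68 by 0.81 (SE 0.22, adjusted p = 0.134). Cd9 (0.65, 95% interval -0.09 to 1.38) and Fabp5 (-0.74, 95% interval -1.76 to 0.27) overlapped. The calls of Trem2 and Gpnmb depended on the number of livers and on the test. Without any one of Mcl1Δhep Sting1-/- replicates 1 and 2 or the 3 Sting1-/- libraries their adjusted p rose to between 0.0704 and 0.158, and limma-voom called neither. DESeq2 called 474 genes in all, 5 of the 9 genes (Trem2, Gpnmb, Lpl, Cd68, Itgax) among them. Their log2 fold changes stayed between 3.14 and 3.84 for Trem2 and between 4.44 and 5.49 for Gpnmb when 1 library was left out. Mcl1Δhep Sting1-/- replicate 1, which had the most Trem2, Gpnmb, and Lpl of its group, was its only library with Y-linked expression.

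None of the 10 pan-macrophage, 10 Kupffer cell, 10 recruited monocyte, 5 tested neutrophil, or 7 stellate and fibroblast markers was called by the quasi-likelihood test, and 2, 0, 2, 0, and 3 of them had an unadjusted p under 0.05, all higher, beside 7.27% of all tested genes. The pan-macrophage markers summed to 774 to 788 CPM in Mcl1Δhep Sting1-/- and 531 to 729 in Sting1-/- livers. Of the 4 adipocyte markers tested, 2 had an unadjusted p under 0.05, both higher. Relative to the pan-macrophage markers of the same library, Gpnmb was 24.6-fold and Trem2 7.86-fold higher in Mcl1Δhep Sting1-/- than in Sting1-/- livers. On that scale 6 of the 9 genes did not overlap, all higher, beside 3.09% of all tested genes.

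Averaged over both Sting1 backgrounds, the Mcl1 effect was called for the 8 genes other than Fabp5, all higher, beside 9.9% of all tested genes called higher. Gpnmb rose by 5.04 on the log2 scale (SE 0.49, adjusted p = 0.00025) and Trem2 by 3.51 (SE 0.35, adjusted p = 0.000274), followed by Lpl at 2.34, Lgals3 at 1.98, Cd63 at 1.96, Itgax at 1.47, Cd9 at 1.18, and Cd68 at 1.03. Gpnmb ranked 3 and Trem2 30 among all 15070 log2 fold changes of this contrast. Both ranks rest on few reads in livers with Mcl1 intact, 3 to 40 per library for Gpnmb and 9 to 29 for Trem2. The 6 livers with Mcl1 deleted lay above the 6 without for 6 of the genes, beside 4.27% of all tested genes, with Cd9 and Cd63 overlapping. Relative to the pan-macrophage markers, this was so for Trem2, Gpnmb, and Lgals3, beside 1.13% of all tested genes. All 8 calls held under every alternative setting tried.

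The difference between the Mcl1 effects in the 2 Sting1 backgrounds was tested directly, and none of the 9 genes passed by the quasi-likelihood test, nor did any other gene (0% of all tested genes). At an unadjusted p under 0.05 there were 3 of the 9 genes, all with a smaller Mcl1 effect without Sting1, beside 7.11% of all tested genes. These were Lgals3 (log2 difference of the effects -1.96, SE 0.44, unadjusted p = 0.000908, adjusted p = 0.226), Cd63 (-1.79, SE 0.58, unadjusted p = 0.0093, adjusted p = 0.280), and Cd9 (-1.07, SE 0.48, unadjusted p = 0.0452, adjusted p = 0.341). For Trem2 and Gpnmb the differences were both -0.12, with 95% intervals from -1.63 to 1.39 and from -2.28 to 2.04, which are wide. With the small structured RNA covariate the differences were -0.66 for Lgals3, -0.58 for Cd63, and 0.034 for Cd9. The median difference over the 9 genes was -0.43, but -1.11 with Y-linked expression as a covariate, where none of the 9 was called. DESeq2 called 170 genes in all, with Lgals3 alone among the 9, and limma-voom called none of the 9. Without Mcl1Δhep replicate 1, the Mcl1Δhep liver with the lowest levels of Trem2, Cd9, Cd63, and Lgals3, the quasi-likelihood test called Lgals3 (-2.25, adjusted p = 0.0124) and Cd63 (-2.11, adjusted p = 0.0278), along with 1574 genes in all, whereas without Mcl1Δhep replicate 2 the values were -1.53 and -1.19 and neither was called. In the same contrast 5 of 10 recruited monocyte markers (median -1.28), 3 of 5 tested neutrophil markers (median -1.84), 3 of 10 pan-macrophage markers, and 2 of 5 pan-leukocyte markers had an unadjusted p under 0.05, all lower. Their part in the differences of Lgals3, Cd63, and Cd9 was not tested.

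**Figure D3:**
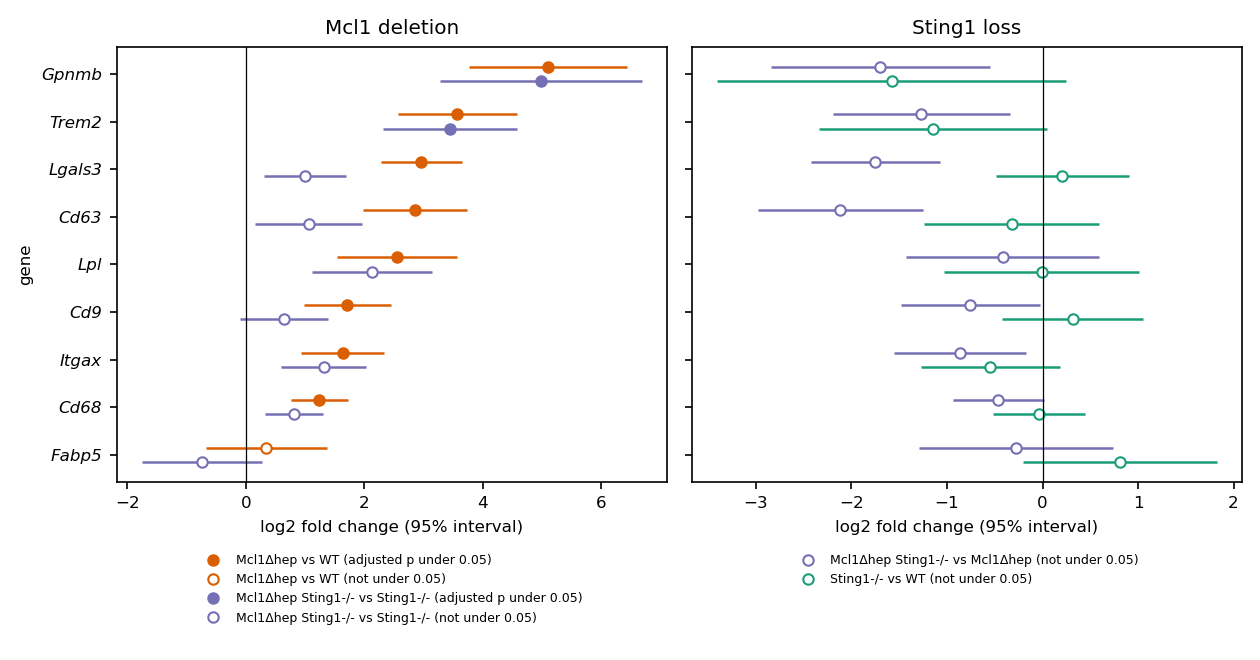
Log2 fold changes of the 9 genes with 95% intervals, for deletion of Mcl1 (left) and loss of Sting1 (right), with filled points at an adjusted p under 0.05. For Gpnmb and Trem2 the Mcl1 effects with and without Sting1 lie side by side, whereas for Lgals3 and Cd63 they lie apart. None of the differences between these Mcl1 effects passed the quasi-likelihood test.

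Loss of Sting1 was compared in Mcl1Δhep livers (Mcl1Δhep Sting1-/- against Mcl1Δhep), which share libraries with both Mcl1 comparisons above. All 9 log2 fold changes were below 0, but none passed the quasi-likelihood test, which called 0% of all tested genes. At an unadjusted p under 0.05 there were 6 of the 9 genes (Trem2, Gpnmb, Cd9, Cd63, Lgals3, Itgax), beside 10.2% of all tested genes with a lower level. In 6 genes, with Cd68 in place of Cd9, every Mcl1Δhep Sting1-/- liver was below every Mcl1Δhep liver, beside 9.28% of all tested genes. The 6 without overlap were Cd63 (-2.12, SE 0.40, adjusted p = 0.131), Lgals3 (-1.75, SE 0.31, adjusted p = 0.131), Gpnmb (-1.70, SE 0.52, adjusted p = 0.148), Trem2 (-1.27, SE 0.42, adjusted p = 0.157), Itgax (-0.86, SE 0.32, adjusted p = 0.174), and Cd68 (-0.46, SE 0.22, adjusted p = 0.254). The 95% interval was -1.49 to -0.02 for Cd9, whereas those of Cd68 (-0.94 to 0.016), Lpl (-1.43 to 0.59), and Fabp5 (-1.29 to 0.74) crossed 0. DESeq2 called Cd63 and Lgals3, among 680 genes in all, and limma-voom called none of the 9. Without Mcl1Δhep replicate 1, the quasi-likelihood test called 4 of the 9 genes and 3108 genes in all. The 4 were Lgals3 (-2.04, adjusted p = 0.00217), Cd63 (-2.44, adjusted p = 0.00318), Trem2 (-1.54, adjusted p = 0.0303), and Cd9 (-1.02, adjusted p = 0.0446). Without Mcl1Δhep replicate 2, the liver with the highest levels of these 4 genes, they were -1.32, -1.51, -0.84, and -0.40, and none was called. With the small structured RNA covariate they were -1.15, -1.56, -0.80, and -0.28. Of the recruited monocyte markers, 9 of 10 also had an unadjusted p under 0.05 in this comparison, all lower, as had 4 of 5 tested neutrophil markers and 2 of 10 pan-macrophage markers, and none of these markers was called.

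Relative to the pan-macrophage markers, 5 of the 9 genes were lower in every Mcl1Δhep Sting1-/- liver, beside 4.77% of all tested genes. Cd63 was 3.50-fold, Gpnmb 3.07-fold, Lgals3 2.79-fold, Itgax 1.61-fold, and Cd68 1.23-fold lower on this scale. Trem2 was 2.28-fold lower on average, with overlap.

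In livers with Mcl1 intact (Sting1-/- against WT), none of the 9 genes passed the quasi-likelihood test, DESeq2, or limma-voom, beside 0% of all tested genes by the first. Trem2 and Gpnmb had an unadjusted p under 0.05, beside 2.88% of all tested genes with a lower level. Trem2 differed by -1.14 on the log2 scale (SE 0.55, unadjusted p = 0.0369, adjusted p = 0.858) and Gpnmb by -1.58 (SE 0.84, unadjusted p = 0.0447, adjusted p = 0.909). Their 95% intervals, from -2.34 to 0.048 and from -3.41 to 0.25, both included 0. These intervals are approximate and do not come from the test itself, so at few reads they can differ from its p-values. In Sting1-/- livers they had few reads per library, 9 to 15 for Trem2 and 3 to 13 for Gpnmb. Trem2 was the 1 gene of the 9 without overlap, beside 5.46% of all tested genes that were lower in every Sting1-/- liver. Relative to the pan-macrophage markers, Gpnmb (3.22-fold), Trem2 (2.64-fold), and Itgax (1.67-fold) were lower in every Sting1-/- liver than in any WT liver, beside 7.38% of all tested genes. The other 7 log2 fold changes lay between -0.55 (Itgax) and 0.81 (Fabp5).

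The Sting1 effect averaged over both Mcl1 backgrounds was added after the levels had been seen. None of the 9 genes passed the quasi-likelihood test (0% of all tested genes), and 5 had an unadjusted p under 0.05 with a lower level, beside 5.16% of all tested genes. These were Gpnmb (-1.64, SE 0.49), Cd63 (-1.22, SE 0.29), Trem2 (-1.21, SE 0.35), Lgals3 (-0.77, SE 0.22), and Itgax (-0.70, SE 0.23), with adjusted p from 0.431 to 0.442. DESeq2 called Trem2 and Cd63, among 67 genes in all, and limma-voom called none of the 9. Without Mcl1Δhep replicate 1 the quasi-likelihood test called Cd63, Lgals3, and Trem2 (adjusted p of 0.0228, 0.0238, and 0.0406), among 773 genes in all. With any 1 library left out, their values ranged from -1.38 to -0.92, from -0.92 to -0.55, and from -1.36 to -0.99.

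Genes that work with TREM2 were less changed than Trem2 itself. Of 8 signalling partners, 6 were called higher in Mcl1Δhep than in WT livers and none lower, with a median log2 fold change of 0.79, beside 10.8% of all tested genes called higher here and in the lists that follow. Tyrobp, the adaptor DAP12, rose by 1.56 (SE 0.22, adjusted p = 0.00182), the kinase Syk by 0.89 (SE 0.17, adjusted p = 0.00566), and the phospholipase Plcg2 by 0.75 (SE 0.20, adjusted p = 0.0225). The proteases Adam10 (0.06) and Adam17 (0.13), which shed TREM2 from the cell surface, were the 2 that did not pass. None of the 8 was called between Mcl1Δhep Sting1-/- and Sting1-/- livers, where Tyrobp differed by 0.43 (adjusted p = 0.506).

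Of 12 genes of macrophage lipid handling, 6 were called higher in Mcl1Δhep than in WT livers and none lower, with a median of 0.55. The scavenger receptor Cd36 rose by 1.70 (SE 0.37, adjusted p = 0.0117), Soat1, which esterifies cholesterol, by 0.97 (SE 0.22, adjusted p = 0.0131), and the scavenger receptor Msr1 by 0.62 (SE 0.15, adjusted p = 0.0178). Hepatocytes and fat cells also express several genes of this list. Of 9 genes that mature or regulate LPL, 1 was higher and 2 were lower, beside 10.8% and 9.43% of all tested genes. The share that was higher was thus near that of all genes. Apoc2, the activator of LPL, rose by 1.31 (SE 0.25, adjusted p = 0.00677), whereas Lmf1, needed for its folding, fell by 0.67 (SE 0.18, adjusted p = 0.0238). Most of this list is made by hepatocytes, which carry the Mcl1 deletion. None of the genes of both lists was called between Mcl1Δhep Sting1-/- and Sting1-/- livers.

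Of 12 other genes of lipid- and scar-associated macrophages, 11 were tested, and 9 were called higher in Mcl1Δhep than in WT livers and none lower, with a median of 0.83. Mmp12, the macrophage elastase, rose by 5.92 (SE 0.73, adjusted p = 0.00175), the actin-capping gene Capg by 2.48 (SE 0.28, adjusted p = 0.00111), and Clec7a, the receptor dectin-1, by 3.02 (SE 0.44, adjusted p = 0.00259). Mmp12 was the 1 gene of the list called between Mcl1Δhep Sting1-/- and Sting1-/- livers, at 6.10 (SE 1.06, adjusted p = 0.025). Mmp12 had 1.32 ± 1.49 CPM in WT, 81.9 ± 50.8 in Mcl1Δhep, 15.8 ± 9.63 in Mcl1Δhep Sting1-/-, and 0.175 ± 0.0422 in Sting1-/- livers. The last level is in the range of Gpnmb there, so the rise of Mmp12 without Sting1 rests on few reads. The comparison without Sting1 gave 121 calls over all genes, but 2 without Mcl1Δhep Sting1-/- replicate 1 and 2 without replicate 2. Whether Mmp12 was among the latter was not examined. Spp1, which encodes osteopontin and which bile duct cells also make, differed by -0.07 (adjusted p = 0.847). Between Mcl1Δhep Sting1-/- and Mcl1Δhep livers, 8 of the 11 had an unadjusted p under 0.05, all lower, beside 10.2% of all tested genes. None was called.

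Among transcription factors of the MiT/TFE family, which drive lysosomal genes and Gpnmb in other settings, only Tfec was called in Mcl1Δhep against WT. Of 6 tested with the related Bhlhe40 and Bhlhe41, Tfec was called higher in Mcl1Δhep than in WT livers (0.91, SE 0.28, adjusted p = 0.0382) and Bhlhe41 lower (-2.04, SE 0.50, adjusted p = 0.0169), whereas Mitf (0.46, adjusted p = 0.0609), Tfeb (-0.14), and Tfe3 (0.01) were not called. Of 21 tested paralogs and partner chains of the 9 genes, 6 were higher and 2 lower, beside 10.8% and 9.43% of all tested genes, so that the share that was lower was near that of all genes. Among them the leukocyte tetraspanin Cd53 rose by 1.37 (SE 0.19, adjusted p = 0.00175), the galectin Lgals1 by 1.53 (SE 0.27, adjusted p = 0.00483), and Itgb2, the partner chain of Itgax, by 1.03 (SE 0.22, adjusted p = 0.00949). The tetraspanins Cd81 and Cd82 were the 2 that were lower (-0.59 and -0.42, adjusted p = 0.0229 and 0.0309). Of the other fatty acid-binding proteins in the list, Fabp7 was called higher and Fabp1, the main one of hepatocytes, was not (-0.20, adjusted p = 0.711).

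**Figure D4:**
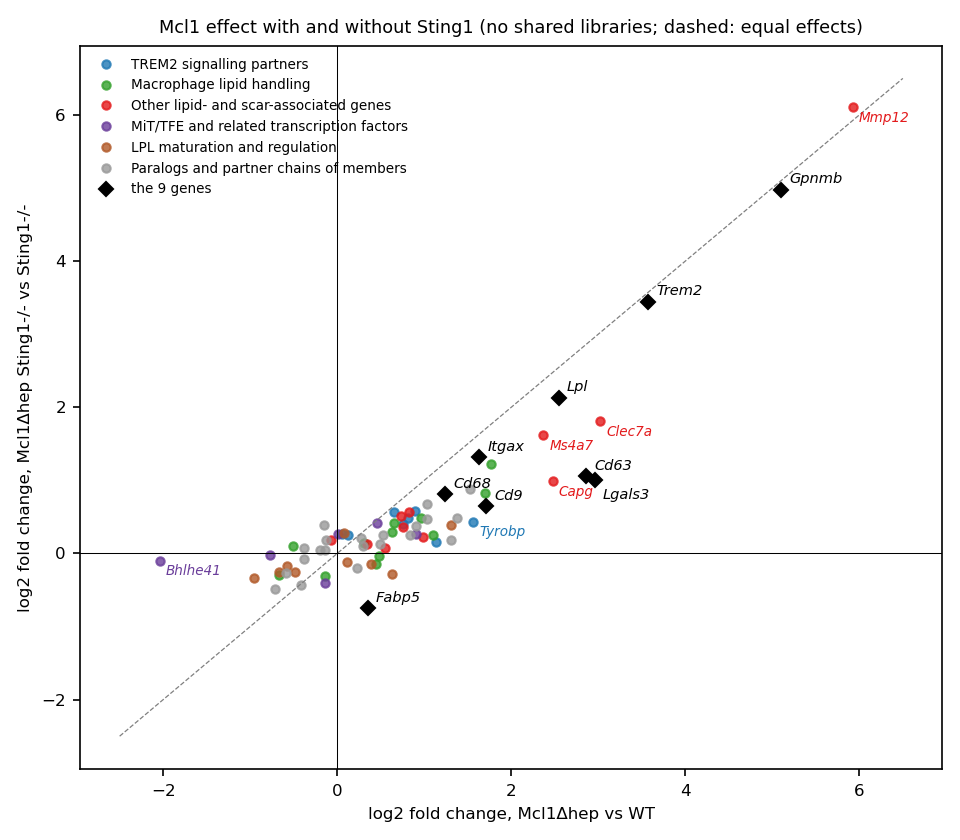
Log2 fold change for deletion of Mcl1 with Sting1 (horizontal axis) and without it (vertical axis), for the 9 genes (black diamonds) and the genes of 6 related lists (circles), with the line of equal effects dashed. The 2 comparisons share no library. Mmp12, Gpnmb, and Trem2 lie near the line at the upper right, and Lgals3, Cd63, Capg, and Clec7a lie below it. No gene passed the quasi-likelihood test for a difference between the effects.

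The genes whose log2 CPM was most like that of each of the 9 over the 12 libraries were found among 12559 genes with a mean of at least 1 CPM. The libraries share the genotype differences, so these Pearson correlations describe the whole pattern and were not tested. For Trem2 they were Phlda3 (r = 0.98), Mmp12 (0.98), and Gpnmb (0.97), and for Gpnmb they were Mmp12 (0.98), Myof (0.97), and Trem2 (0.97). Cd68 was most like Lgmn, Myo1f, and Ly9, and Lgals3 most like Cd300a, Pkm, and Cd52. For Cd63 the nearest genes were Tagln, Anxa1, and Tagln2, for Cd9 they were Txndc12, Tm6sf1, and Sap30, for Lpl Arhgap25, Stmn1, and Tacc3, and for Itgax Lhfpl6, Rab31, and Gpr35. The nearest gene to Fabp5 was Mettl13 (r = 0.91), and its correlations with the other 8 genes lay between -0.25 and 0.10. After each genotype's mean was removed, Cd68 still followed the mean of the pan-macrophage markers over the 12 libraries (r = 0.95), Gpnmb (0.65), Lgals3 (0.48), and Itgax (0.45) did so less closely, and Trem2 (-0.03), Cd63 (-0.01), Lpl (-0.07), Cd9 (-0.10), and Fabp5 (-0.28) did not. In those deviations the highest correlation among the 9 genes was that of Gpnmb and Cd68, at 0.80. Trem2 and Gpnmb correlated at 0.63, Cd9 and Cd63 at 0.67, and Cd63 and Lgals3 at 0.67.

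Genes with near-identical copies could lose or gain reads in counting. Of the 9, Cd63, Cd9, and Fabp5 have annotated copies with at least 95% identity over 300 or more bases, and the 1 copy among the counted genes (of Cd63) had at most 4 reads. Genes annotated on the opposite strand overlap exons of 6 of the 9 genes, but the 1 among the counted genes (at Cd9) had at most 2 reads per library. The positions of the 9 genes on GRCm39 are chr17:48653429-48661175 for Trem2, chr6:49013426-49047863 for Gpnmb, chr6:125437210-125471778 for Cd9, chr10:128731528-128748709 for Cd63, chr3:10077602-10081674 for Fabp5, chr8:69284603-69360100 for Lpl, chr11:69555037-69557067 for Cd68, chr14:47605208-47623624 for Lgals3, and chr7:127728668-127749829 for Itgax.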

How the data were processed

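RNA of 12 mouse livers was sequenced by the authors on an Illumina NovaSeq instrument, with 1 library per liver and 3 per genotype. Each deposited file holds raw read counts per Ensembl gene, with no normalization. The submitters' processing notes name STAR, featureCounts, and build GRCm39, but versions, annotation release, and use of strand are not given in the sources used here. Genotypes and replicate numbers were taken from the sample labels. Libraries of one genotype differed by a chi-square of 43.2 to 314 per degree of freedom, so none was a repeat of another.

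Counts were normalised with TMM factors and tested with edgeR's quasi-likelihood test (edgeR 4.0.16, R 4.3.3) over all 12 libraries, after a filter on low counts by genotype (filterByExpr) that kept 15070 of 40551 genes. Log2 fold changes were moderated with a prior count of 2, and SEs came from the fitted values without it. The 95% intervals combined both, so they are approximate and at few reads can differ from the test's p-values. These p-values were adjusted over all tested genes with the Benjamini-Hochberg method, at a threshold of 0.05. A gene was called not to overlap where every liver of one genotype lay above every liver of the other. TPM used GENCODE vM39 exon lengths, and at most 0.101% of a library's counts had no length. Near-identical transcripts were sought with blastn 2.17.0, and figures were drawn with matplotlib 3.10.9. Alternatives were DESeq2 1.42.0, limma-voom (limma 3.58.1), other scaling, no filter, the replicate number as a block, covariates for Y-linked expression and for small structured RNAs, the genotypes compared alone, and leaving out each library.

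The 9 genes and the lists of related genes and cell type markers were chosen with earlier results of these data known. From each list of related genes, up to 3 called genes with the lowest p were named, and for each of the 9 genes the 3 most alike genes. 1 gene that this rule names is not reported here. Adam10, Adam17, Spp1, Mitf, Tfeb, Tfe3, Cd81, Cd82, Fabp7, and Fabp1 were named after their values were seen.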

Additional observations from a re-analysis of the deposited data

How the results depend on the processing

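The number of the 9 genes called for Mcl1 deletion was 8 with Sting1 present under all settings but the small structured RNA covariate, where it was 4, and 8 under all settings for the average over Sting1 backgrounds. Without Sting1 it was 2, but 5 with DESeq2, 3 with no filter and with the small structured RNA covariate, 1 with only the genotypes compared, 0 with limma-voom, and 0 to 3 when 1 library was left out. For Sting1 loss in Mcl1Δhep livers it was 0, but 2 with DESeq2 and 0 to 4 with 1 library left out. For the difference of the Mcl1 effects it was 0, but 1 with DESeq2 and 0 to 2 with 1 library left out, and for Sting1 loss over both Mcl1 backgrounds it was 0, but 2 with DESeq2 and 0 to 3. The highest number in the last 3 comparisons came without Mcl1Δhep replicate 1. For Sting1-/- against WT it was 0 throughout.

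Over all tested genes, Mcl1Δhep against WT gave 3050 calls, but 407 with the small structured RNA covariate, 1521 with the Y-linked covariate, 1178 with only the genotypes compared, and 1233 to 5232 with 1 library left out. Mcl1Δhep Sting1-/- against Sting1-/- gave 121, but 474 with DESeq2, 50 with the Y-linked covariate, 17 with only the genotypes compared, 1 with limma-voom, and 1 to 249 with 1 library left out. The averaged Mcl1 effect gave 2522, but 1599 with the small structured RNA covariate and 4267 without Mcl1Δhep replicate 1. Comparisons with 0 calls gave 680 (Sting1 loss in Mcl1Δhep), 49 (Sting1-/- against WT), 170 (difference of the Mcl1 effects), and 67 (averaged Sting1 loss) with DESeq2. Scaling by library totals only moved the median of all genes in Mcl1Δhep against WT to 0.19 and the split to 2591 higher of 3231, from 1629 of 3050, with the same number of the 9 genes called.

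With the replicate block, 8, 2, and 8 of the 9 genes were called for the Mcl1 effects with Sting1, without it, and averaged, and 0 for all other comparisons, so no count changed. The numbers do not pair the libraries: deviations of 18 same-numbered pairs correlated at a median of -0.02, with 3 pairs over 0.1.

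Directions turned only for differences that had not passed the test, among them that of the Mcl1 effects for Cd9 (-1.07), and the cause was not tested. With the Y-linked covariate, Fabp5 was -0.22 in Mcl1Δhep against WT and 0.0017 for Sting1 loss in Mcl1Δhep, and Lpl 0.79 and Cd68 0.0094 in Sting1-/- against WT. With the small structured RNA covariate, Fabp5 was 0.037 for the averaged Mcl1 effect, Cd9 -0.31, Lgals3 -0.49, and Lpl 0.14 in Sting1-/- against WT, and the difference of the Mcl1 effects was 0.89 for Trem2, 0.75 for Gpnmb, 0.034 for Cd9, and 0.022 for Itgax. With limma-voom, Lpl was 0.031 and Cd68 0.030 in Sting1-/- against WT, and with DESeq2 the difference of the Mcl1 effects was 0.13 for Gpnmb. With 1 library left out, Fabp5 ranged from -0.46 to 0.060 for the averaged Mcl1 effect and from -0.0078 to 0.53 for averaged Sting1 loss, and Lpl from -1.25 to 0.0045 for Sting1 loss in Mcl1Δhep. In Sting1-/- against WT, Cd9 ranged from -0.11 to 0.52, Cd63 from -0.55 to 0.051, Lpl from -0.19 to 0.17, and Cd68 from -0.26 to 0.28. The difference of the Mcl1 effects ranged from -0.42 to 0.30 for Trem2, from -0.83 to 0.40 for Gpnmb, and from -1.24 to 0.017 for Lpl. Depth limits Gpnmb and Trem2 in Sting1-/- livers, at 3 to 15 reads per library.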
